A study of Homo sapiens with 12 samples.

Results

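The genes described here are 46 genes of the kinetochore, its regulators and the spindle checkpoint, measured in HCT116 cells, an established human colorectal carcinoma line. They were taken by symbol from the 15798 genes of a table of read counts, and all 46 were found in it. The set was drawn up around the known fall in ribosome density of SKA3, so the density of SKA3 is the starting point and not a result of the set. The cells were given trametinib, an inhibitor of the kinases MEK1 and MEK2, at 100 nM for 24 h, or DMSO, its solvent, as the control. From each dish the input (fragmented cytoplasmic RNA) and the ribosome protected fragments (footprints, the RNA left under monosomes after RNase I digestion) were sequenced. This gave 4 groups of 3 replicates: DMSO input, trametinib input, DMSO footprints and trametinib footprints. No genotype differs between the groups, all 12 libraries come from the same line, and cycloheximide was given to every dish before lysis. The question behind the set is whether the fall in ribosome density of SKA3, footprints relative to input, is shared by other kinetochore genes.

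The kinetochore is the protein assembly that links the centromere of a chromosome to spindle microtubules. Centromeres are marked by nucleosomes that hold the histone variant CENP-A. On these sits the constitutive centromere associated network, which recruits the KNL1, MIS12 and NDC80 complexes, and NDC80 with the SKA complex binds the microtubule. The spindle checkpoint kinases and MAD and BUB proteins act at kinetochores without attached microtubules and delay anaphase, while the chromosomal passenger complex destabilises wrong attachments. In proliferating cells most of these genes are transcribed periodically, late in the cell cycle, and MEK to ERK signalling drives entry into that cycle. These samples are bulk cultures, so fewer cells in a cell cycle phase and less RNA per cell cannot be told apart.

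Input libraries held between 2276693 and 2845568 counts over all genes and footprint libraries between 10127477 and 19181588, so footprint values rest on more reads than input values. The 46 genes took 0.264%, 0.362% and 0.279% of the counts in the DMSO input libraries and 0.0534%, 0.0510% and 0.0523% in the trametinib input libraries. In footprints they took 0.276%, 0.364% and 0.375% under DMSO and 0.0652%, 0.0627% and 0.0684% under trametinib. Every trametinib library therefore lay below every DMSO library of its kind, and among the DMSO dishes replicate 1 gave the lowest share in both kinds of RNA. The label of the line was checked with 4 epithelial markers (EPCAM, KRT8, KRT18 and CDH1), whose summed raw counts ran from 9670 to 15275 in DMSO input and from 11616 to 14261 in trametinib input. The 6 markers of leukocytes, fibroblasts and endothelium together had 15 to 36 counts in any input library, nearly all from COL1A1, while PTPRC, CD3E, COL1A2, PECAM1 and CDH5 had at most 3 counts in any of the 12 libraries. All 10 genes of a list of ERK output genes were lower under trametinib in both input (median log2 change -4.74) and footprints (median -5.13). The list was chosen with earlier results of these data known, so this is no independent check of the treatment.

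Since most of the 46 genes moved together at the RNA level, their promoters were read for 3 short motifs that are common in cell cycle genes. RefSeq promoters (GRCh38.p14, 250 bases before to 50 after the start) were matched for 37 of the 46 genes. The cell cycle genes homology region core, TTTGAA on either strand, which is bound by the MuvB complexes that time late cell cycle genes, stood in 16 of 37 (43.2%), against 15.4% of 27305 promoters of the same length. CCAAT on either strand, the letters bound by NF-Y, stood in 24 (64.9%, against 35.7%), and GGCGGGA on either strand, a form of the E2F site, in 12 (32.4%, against 15.5%). TTTGAA and ATTGG, the reverse of CCAAT, can share a letter, as they do in CDCA8. These matches are descriptions of letters and not sites shown to be bound. Of the 37 promoters, 6 held none of the 3 motifs, and of these CENPE, CENPI, CENPP and CENPT fell in input, NSL1 did not pass the test below and MAD1L1 was not tested. In contrast CENPC, which did not pass in input, held the core and CCAAT, and MIS12 and PMF1, which did not pass either, held CCAAT. The window read for CENPI (chrX:101100808-101101107) lies inside the gene, which begins at 101098188 in GENCODE, so an earlier start was not read. The windows of AURKB, CENPA, CENPN, CENPO, MAD1L1, NUF2, SGO2, SPC25 and ZWILCH also lie inside the annotated span of their gene. That of CENPP (chr9:92325218-92325517) ends before its gene begins, at 92325953, so the annotated start of CENPP was not read. Promoters of 4 genes with the core near the start, of SKA3, and of NSL1, as an example without a match, are shown from 110 bases before the start through the first 10 transcribed bases, 5′ to 3′ on the gene's strand, with matches in capitals.
CENPA, chr2:26785946-26786065, plus strand: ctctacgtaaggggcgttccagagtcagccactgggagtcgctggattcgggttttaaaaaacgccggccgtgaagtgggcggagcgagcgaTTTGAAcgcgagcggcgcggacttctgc
BUB1B, chr15:40160959-40161078, plus strand: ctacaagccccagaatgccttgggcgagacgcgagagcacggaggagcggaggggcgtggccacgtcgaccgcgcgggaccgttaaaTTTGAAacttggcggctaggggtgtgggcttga
CDCA8, chr1:37692406-37692525, plus strand: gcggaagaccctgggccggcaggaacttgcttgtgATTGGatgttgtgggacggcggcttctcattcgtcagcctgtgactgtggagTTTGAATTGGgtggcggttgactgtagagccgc
SPC25, chr2:168890421-168890540, minus strand: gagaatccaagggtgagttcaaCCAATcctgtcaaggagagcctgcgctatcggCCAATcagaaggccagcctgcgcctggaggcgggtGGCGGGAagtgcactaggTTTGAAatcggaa
SKA3, chr13:21176543-21176662, minus strand: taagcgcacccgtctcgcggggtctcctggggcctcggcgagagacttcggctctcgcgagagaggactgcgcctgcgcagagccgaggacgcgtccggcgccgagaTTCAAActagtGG
NSL1, chr1:212791768-212791887, minus strand: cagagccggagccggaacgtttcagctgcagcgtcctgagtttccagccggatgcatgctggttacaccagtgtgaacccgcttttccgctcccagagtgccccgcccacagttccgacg
In SKA3 the core lies on the reverse strand across the start, and the capitals at its end open a GGCGGGA that runs past the stretch shown.

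At the RNA level 41 of the 45 genes that could be tested were lower under trametinib and 0 were higher, with a median log2 change of -2.96, and 34 were at least 4-fold lower. Across all 10663 genes tested, 16.8% were lower and 15.4% higher, the median change was -0.00, and 3.23% were at least 4-fold lower (edgeR's quasi-likelihood test, adjusted p under 0.05). In footprints 43 of 45 were lower and 0 higher, with a median of -3.36 and 37 at least 4-fold lower, against 25.6% of all genes lower, 23.9% higher and 3.57% at least 4-fold lower. The balance of all genes depends on the scaling: 2727 were lower and 2545 higher in footprints, but 1951 lower and 3570 higher with library totals, under which 43 of the 45 were still lower. In both kinds of RNA, 0 of the 45 were higher at an unadjusted p under 0.05 or with DESeq2 or limma-trend. Counted by library, every trametinib input library lay below every DMSO input library for 42 of the 46 genes, where 23.3% of all genes tested had this order. In footprints 43 of the 46 had it, where 30.3% of all genes tested did. The largest falls in input were those of AURKB (-4.83), HJURP (-4.65) and SKA1 (-4.49). CENPC, MIS12, NSL1 and PMF1 did not pass the test in input, and NSL1 and PMF1 did not pass it in footprints. MAD1L1, a checkpoint protein that brings MAD2L1 to kinetochores, was not tested: it had 1 to 15 raw counts in every library, too few for the minimum of 10 counts in 3 input libraries. Whether its reads were left out because another symbol shared them in the annotation the study used was not tested, so its counts are not read as a low level.

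Falls of this size left few reads. Of the 45 genes tested, 23 had at least 10 counts in all 3 trametinib input libraries, 22 reached 10 counts in fewer of them, and 12 had under 10 counts in every trametinib input library. Of the 22, 21 met the minimum in all 3 DMSO input libraries, and PMF1 met it with counts from both groups. A gene that passes only through the group where it is high is likely to differ, so for those 21 genes the counts above are not independent of the minimum. The fewest reads were those of CENPA, CENPP and CENPW, with at most 3 counts in any trametinib input library. For CENPA 5 counts under trametinib against 128 under DMSO gave 4.44% of the control level (exact 95% interval 1.42% to 10.6%, counting error only). For CENPP 3 counts against 52 gave 6.56% (1.31% to 20.3%), and for CENPW 7 against 90 gave 8.84% (3.46% to 19.0%).

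**Figure D1:**
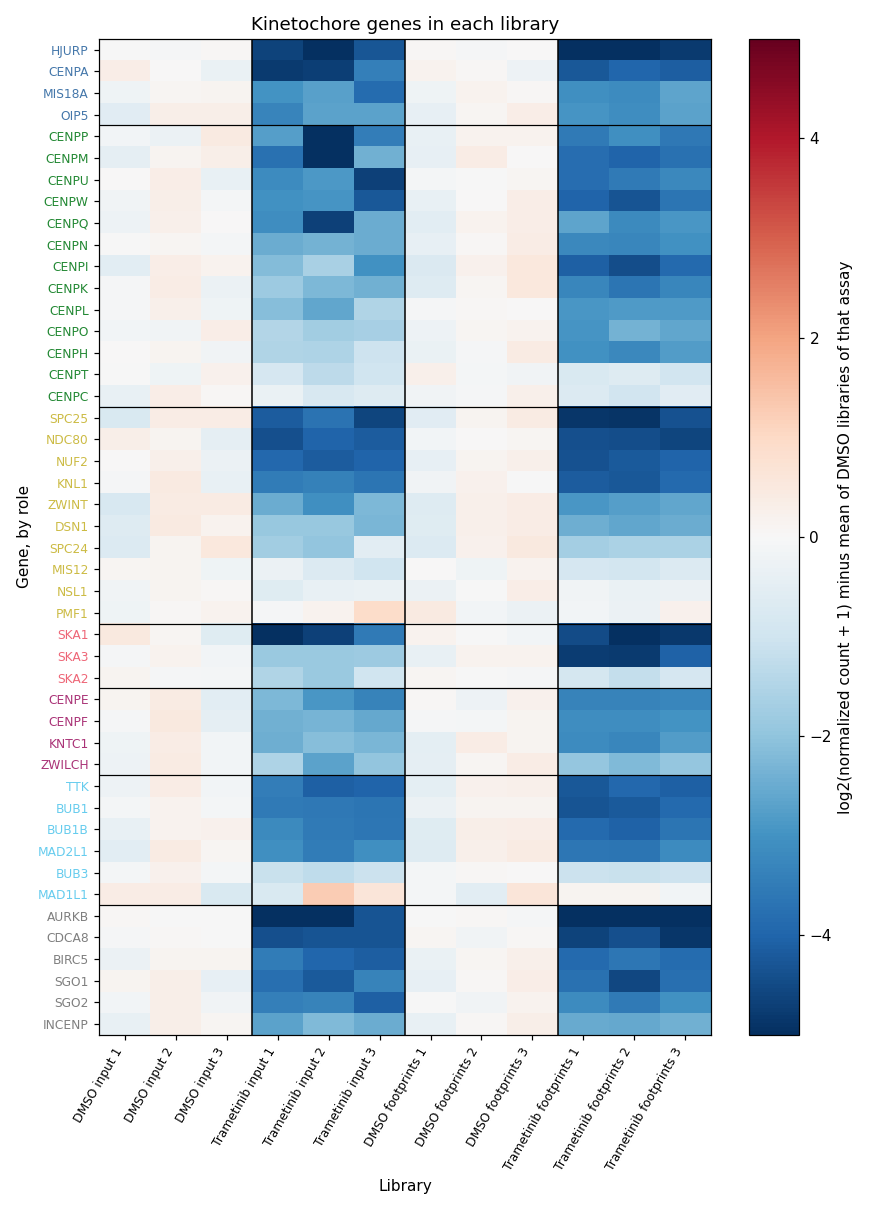
Level of each of the 46 genes (rows, grouped by role and coloured by role on the axis) in each of the 12 libraries (columns), as log2 of the normalized count plus 1 minus the mean of the DMSO libraries of the same kind of RNA. Blue marks lower values: nearly all rows turn blue in the trametinib libraries of both kinds, NSL1, PMF1 and MAD1L1 stay pale, and SKA3 is pale blue in trametinib input and dark blue in trametinib footprints.

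Values per library below are normalized counts, the raw count divided by the library's size factor, in the order of replicates 1 to 3, and a change is the log2 ratio of trametinib to DMSO, given with its SE.

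The genes of the CENP-A nucleosome and its loading all fell, 4 of 4 in input and 4 of 4 in footprints. HJURP, the chaperone that deposits CENP-A, stood at 617, 590 and 653 in DMSO input and at 24.1, 18.0 and 30.9 in trametinib input. Its footprints stood at 485, 452 and 472 under DMSO and at 12.9, 11.1 and 16.2 under trametinib. The groups were far apart in both, with changes of -4.65 ± 0.226 (adjusted p = 3.31e-08) and -5.14 ± 0.157 (adjusted p = 2.08e-07). MIS18A, part of the complex that licenses the centromere for new CENP-A, had 136, 171 and 176 in DMSO input against 19.3, 23.2 and 10.3 under trametinib. In footprints it had 308, 399 and 368 against 42.1, 39.0 and 56.1. MIS18A thus lay lower in every trametinib library, by -3.16 ± 0.303 in input (adjusted p = 6.36e-06) and -2.97 ± 0.174 in footprints (adjusted p = 3.25e-06). OIP5, its partner in that complex, had the smallest input change of the list (-2.96). In ribosome density the list held 0 calls, with a median change of 0.11, from -0.40 for HJURP to 0.28 for MIS18A.

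In the constitutive centromere network 12 of 13 genes fell in input (median -2.23) and 13 of 13 in footprints (median -3.22). CENPN, which reads the CENP-A nucleosome, stood at 567, 614 and 543 in DMSO input and at 101, 111 and 103 under trametinib. Its footprints stood at 420, 584 and 720 and then at 58.7, 58.3 and 68.5. The change was -2.44 ± 0.171 in input (adjusted p = 4.16e-07) and -3.22 ± 0.201 in footprints (adjusted p = 4.59e-06), with no overlap of the groups. CENPW, a small histone-fold protein that pairs with CENP-T, had input values of 58.2, 79.9 and 60.9 under DMSO and 7.22, 7.72 and 2.57 under trametinib. Its footprint values were much higher, at 324, 422 and 521 against 24.6, 20.1 and 32.3. CENPW changed by -3.43 ± 0.419 in input (adjusted p = 5.50e-05) and by -4.04 ± 0.231 in footprints (adjusted p = 2.72e-06). At the other end of the list, CENPC, the scaffold that holds the network on the nucleosome, had a change of -0.59 ± 0.246 in input that did not pass the test (adjusted p = 0.0831), and fell by 0.74 ± 0.161 in footprints (adjusted p = 0.00493). CENPT, which reaches out to NDC80, had the next smallest changes (-1.04 in input, -0.80 in footprints), while CENPP had the largest in input (-3.78) and CENPI the largest in footprints (-4.37).

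CENPH, a subunit of the same network, was lower in input and far lower in footprints. Its input values were 140, 151 and 122 under DMSO and 48.1, 46.3 and 66.8 under trametinib, a change of -1.35 ± 0.241 (adjusted p = 0.00103). Its footprint values were 108, 128 and 177 against 15.7, 13.6 and 18.6, a change of -3.11 ± 0.229 (adjusted p = 1.22e-05). CENPH lies at chr5:69189574-69210357 on the plus strand (GENCODE, GRCh38), with a coding sequence of 741 bases in 9 coding exons.

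The 10 genes of the KNL1, MIS12 and NDC80 complexes were the most divided list, with 7 lower in input and 8 in footprints. KNL1, the scaffold for BUB1 and BUB3, stood at 742, 1063 and 602 in DMSO input and at 67.4, 74.6 and 61.7 under trametinib. Its footprints stood at 607, 788 and 673 and then at 37.8, 35.7 and 45.7. KNL1 changed by -3.55 ± 0.243 in input (adjusted p = 3.50e-07) and -4.12 ± 0.155 in footprints (adjusted p = 3.69e-07). NDC80, the main microtubule binding subunit, had 518, 473 and 316 in DMSO input against 19.3, 25.7 and 23.1 under trametinib. In footprints it had 604, 666 and 712 against 30.1, 29.6 and 26.6. Its changes of -4.24 ± 0.277 (adjusted p = 2.30e-07) and -4.51 ± 0.128 (adjusted p = 1.55e-07) were among the largest of the list, beside SPC25 (-4.31 and -4.79) and NUF2 (-4.08 and -4.26). The fourth subunit of that complex, SPC24, changed less, by -1.37 ± 0.407 in input (adjusted p = 0.0214) and -1.72 ± 0.279 in footprints (adjusted p = 0.00109). Of the MIS12 complex, DSN1 fell in both (-2.09 and -2.57). MIS12 had -0.63 in input, which did not pass (adjusted p = 0.0723), and fell in footprints (-0.84, adjusted p = 0.00163). NSL1 passed in neither (-0.42, adjusted p = 0.102, and -0.29, adjusted p = 0.163). PMF1 did not pass either (0.40, adjusted p = 0.449, and -0.14, adjusted p = 0.719). PMF1 is uncertain: 91.7% of its coding sequence is shared with the read-through gene PMF1-BGLAP, the study counted only reads of a single symbol, and 9 to 47 counts were left in a library. Compared per length, the 4 NDC80 subunits stood in DMSO footprints at 343 ± 28.2 (NDC80), 417 ± 95.9 (NUF2), 214 ± 81.2 (SPC24) and 1043 ± 335 (SPC25) normalized counts per kb of coding sequence (SD, n = 3). Under trametinib SPC24 was the highest of the 4, at 64.5 ± 3.23, above SPC25 at 37.97 ± 8.82, NUF2 at 21.8 ± 2.71 and NDC80 at 14.9 ± 0.970.

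The 3 subunits of the SKA complex, which follows the ends of microtubules together with NDC80, took 3 different courses. SKA1, which carries the microtubule binding domain, stood at 315, 240 and 145 in DMSO input and at 4.81, 7.72 and 18.0 under trametinib, on 2, 3 and 7 raw counts. Its footprints stood at 347, 303 and 285 and then at 13.2, 4.52 and 9.99. SKA1 was lower in both by similar amounts, -4.49 ± 0.429 in input (adjusted p = 6.26e-06) and -5.03 ± 0.285 in footprints (adjusted p = 2.57e-06). SKA2, the smallest subunit, had 168, 147 and 140 in DMSO input against 52.9, 41.2 and 74.6 under trametinib. In footprints it had 446, 412 and 402 against 229, 185 and 232. SKA2 kept more of its level than most of the set, with changes of -1.42 ± 0.252 in input (adjusted p = 0.000964) and -0.96 ± 0.121 in footprints (adjusted p = 0.000283). SKA3, the subunit that CDK1 phosphorylates to bind NDC80, stood at 211, 248 and 197 in DMSO input and at 60.2, 59.2 and 61.7 under trametinib, a change of -1.85 ± 0.212 (adjusted p = 3.24e-05). SKA3 footprints stood at 254, 378 and 378 under DMSO and at 11.4, 11.1 and 19.0 under trametinib, a change of -4.62 ± 0.255 (adjusted p = 2.15e-06). The SKA3 values under trametinib rest on 25, 23 and 24 raw counts in input and 37, 27 and 40 in footprints. The gap between its input and footprint change is the fall in density around which the set was drawn up. SKA3 lies at chr13:21153595-21176552 on the minus strand, with 1236 coding bases in 8 coding exons. Per kb of coding sequence, DMSO footprints stood at 407 ± 41.9 for SKA1, 1156 ± 63.5 for SKA2 and 272 ± 57.8 for SKA3. Under trametinib they stood at 12.1 ± 5.74, 594 ± 72.1 and 11.2 ± 3.64 (SD, n = 3), so SKA2 was far above its partners, which lay within their spread of each other.

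All 4 genes of the outer corona, the fibrous layer that captures microtubules, fell in both measurements. CENPF, a large coiled-coil protein of late cell cycle cells, stood at 2541, 3658 and 1927 in DMSO input and at 501, 522 and 447 under trametinib. Its footprints stood at 926, 894 and 1050 and then at 109, 111 and 120. CENPF changed by -2.46 ± 0.216 (adjusted p = 3.00e-06) and -3.07 ± 0.116 (adjusted p = 3.69e-07). KNTC1, a subunit of the complex that brings dynein to kinetochores, had 748, 1115 and 789 in DMSO input against 161, 198 and 180 under trametinib. In footprints it had 461, 842 and 712 against 73.1, 66.6 and 92.8. Its changes were -2.29 ± 0.196 (adjusted p = 2.48e-06) and -3.12 ± 0.234 (adjusted p = 1.33e-05). ZWILCH, from the same complex, had the smallest changes (-2.02 and -2.08) and CENPE, a kinesin, the largest (-2.82 and -3.36).

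Of the 6 spindle checkpoint genes, the 5 that could be tested fell in both measurements. BUB3, which also acts outside mitosis, had the most counts of the 46 genes and changed least in its list, with 1318, 1640 and 1318 in DMSO input against 652, 589 and 671 under trametinib. Its footprints went from 3429, 3862 and 3747 to 1753, 1708 and 1784. The change was -1.15 ± 0.152 in input (adjusted p = 0.000104) and -1.07 ± 0.105 in footprints (adjusted p = 7.11e-05), and the groups did not overlap. MAD2L1, the inhibitor of CDC20, had 410, 780 and 635 in DMSO input against 69.8, 51.5 and 69.4 under trametinib. In footprints it had 1166, 2197 and 2409 against 151, 143 and 206. In both kinds of RNA its DMSO replicate 1 was the lowest of the control libraries, and the changes were -3.24 ± 0.263 (adjusted p = 1.49e-06) and -3.53 ± 0.282 (adjusted p = 1.96e-05). The kinases TTK (-3.87 and -4.15) and BUB1 (-3.59 and -4.16) had the largest changes of the list. BUB1B, whose change was -3.46 in input and -3.94 in footprints, shares 6.89% of its coding sequence with the read-through gene BUB1B-PAK6.

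All 6 genes of the chromosomal passenger complex and the shugoshins fell in both measurements, with the lowest input median of the lists (-3.87). AURKB, the kinase of the complex, stood at 805, 758 and 770 in DMSO input and at 19.3, 23.2 and 38.6 under trametinib. Its footprints stood at 1139, 1189 and 1097 and then at 27.6, 34.1 and 25.2. AURKB had the largest change of the 46 genes in both, -4.83 ± 0.236 (adjusted p = 3.31e-08) and -5.30 ± 0.149 (adjusted p = 1.55e-07). BIRC5, survivin, which brings the complex to centromeres, had 343, 467 and 466 in DMSO input against 36.1, 25.7 and 23.1 under trametinib. In footprints it had 539, 720 and 797 against 44.9, 54.2 and 46.1. Its changes were -3.88 ± 0.248 (adjusted p = 1.97e-07) and -3.82 ± 0.175 (adjusted p = 8.93e-07). CDCA8, borealin, was close to AURKB (-4.42 and -4.70). INCENP, the scaffold, changed least (-2.47 and -2.55), and the shugoshins SGO1 and SGO2, which protect cohesin at centromeres, lay between them (-3.87 and -3.60 in input).

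Ribosome density asks whether footprints changed by more or less than input. It was tested as the interaction of the kind of RNA with treatment over all 12 libraries. The scaling centres each library on its typical gene, so footprint and density changes are relative, and a fall shared by all genes is removed. The paper reports a global repression of translation under trametinib, measured by polysome profiles and by puromycin incorporation. A density change near the median of all genes is thus no sign of an unchanged number of ribosomes per RNA. Beside SKA3, around which the set was drawn up, density fell for 1 of the other 44 genes, CENPH, and rose for 0. The call of CENPH was lost in 5 of 20 alternative fits. Of all 10663 genes 0.816% were lower and 0.0938% higher, or 87 and 10 genes, and 78 and 27 with library totals. The median change of the other 44 was -0.20, against 0.07 over all genes, and 31 of 44 lay below 0, against 40.6% of all genes. At an unadjusted p under 0.05, 7 of the 44 were lower and 0 higher, beside 370 lower and 569 higher of all genes. Apart from KNTC1, the 7 belong to the constitutive centromere network. With DESeq2, which gave an adjusted p for 43 of the 45, SKA3, CENPH and CENPI were lower and 0 were higher. By dish, 11 of the 45 had every trametinib value below every DMSO value, where 9.03% of all genes did. These 11 include SKA3, around which the set was drawn up. In 1 gene, SKA2, every trametinib value lay above, and the share of all genes with that order was not counted.

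SKA3 had a density (footprint over input normalized counts) of 1.202, 1.52 and 1.92 in the DMSO dishes and 0.189, 0.187 and 0.308 in the trametinib dishes. The groups were widely separated, and the change was -2.69 ± 0.336 (95% interval -3.41 to -1.98, adjusted p = 0.00240), a density 6.47-fold lower. It ranked 4 from the lowest of the 10663 genes. The set was drawn up around this fall, so its rank, adjusted p and calls in other fits describe it and are no separate support. For CENPH the dishes gave 0.767, 0.844 and 1.45 and then 0.326, 0.293 and 0.278, again without overlap, with a change of -1.68 ± 0.337 (95% interval -2.40 to -0.96, adjusted p = 0.0272) and rank 22. The call of SKA3 held in all 20 alternative fits, with adjusted p from 9.61e-11 to 0.0137. That of CENPH held in 15 of 20, with adjusted p from 0.000656 to 0.0978: it was lost, at the same direction, without DMSO input replicate 2 (0.0516), without trametinib input replicate 1 (0.0504) or 3 (0.0937), and without trametinib footprint replicate 1 (0.0644) or 2 (0.0978).

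The footprint change of SKA3 (-4.62) was among the larger ones of the set: 5 of the other 44 genes had a lower value, and their median was -3.32. Its input change (-1.85) was among the smaller ones: 10 of the 44 had a value nearer 0, and their median was -3.06. SKA3 thus lay below the median of the others in footprints and nearer 0 than their median in input. This gap is the fall in density around which the set was drawn up, and not a further result. The distance of the other genes from the density estimate of SKA3 is therefore no test of a difference. The 95% interval of SKA3 ran from -3.41 to -1.98. The intervals of CENPH (from -2.40), CENPI (from -3.37), CENPK (from -2.35) and SPC25 (from -2.09) reached into it. Of the other 44 genes, 7 had a 95% interval of the density change wholly below 0 and 0 wholly above. The half-widths of these intervals ran from 0.36 to 1.85 (median 0.78) and 15 were over 1, so for those 15 genes the interval reached past 2-fold to either side of the estimate.

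**Figure D2:**
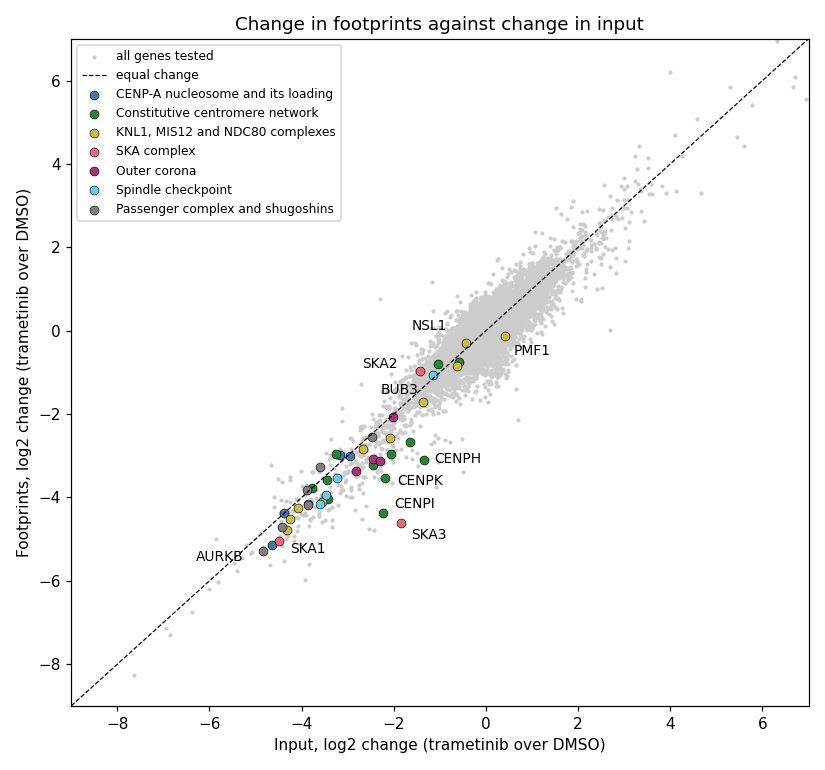
Log2 change in footprints (vertical) against log2 change in input (horizontal), trametinib over DMSO, for the 10663 genes tested (grey) and the 45 kinetochore genes (coloured by role), with a dashed line where the changes are equal. Most coloured points lie on or a little below the line, whereas SKA3 (-1.85, -4.62), CENPI (-2.23, -4.37) and CENPH (-1.35, -3.11) lie farthest below it.

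In the SKA complex neither of the other subunits was called for density, and for SKA1 the change was not resolved. SKA1 had densities of 1.10, 1.26 and 1.96 under DMSO and 2.74, 0.585 and 0.555 under trametinib. These overlap, the high value is that of the dish with 2 input counts, and the change of -0.44 ± 0.696 did not pass the test (95% interval -1.93 to 1.06, adjusted p = 0.946), an interval that still holds large changes in either direction. SKA2 had 2.65, 2.80 and 2.86 under DMSO and 4.33, 4.50 and 3.11 under trametinib. Its trametinib dishes were all higher, but the change of 0.54 ± 0.257 did not pass (95% interval -0.01 to 1.09, adjusted p = 0.575).

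The constitutive centromere network had a median density change of -0.49, with 1 of 13 called. CENPH, CENPI, CENPK and CENPM are known to form a subcomplex of this network, and it is described here because of the values seen. CENPI had densities of 1.12, 1.19 and 1.66 under DMSO and 0.319, 0.160 and 0.703 under trametinib, and CENPK had 0.779, 0.967 and 2.07 and then 0.412, 0.408 and 0.625. Neither overlapped between treatments. CENPI, with -2.05 ± 0.615, did not pass (adjusted p = 0.224), but passed with DESeq2 (0.0195), with a replicate block for each dish (0.0292) and without DMSO footprint replicate 1 (0.0245), in a range of 0.0195 to 0.733 over the 20 fits. CENPI rests on 10, 14 and 5 input counts under trametinib. CENPK, with -1.28 ± 0.502, passed in 0 of the 20 fits (adjusted p = 0.442), and CENPM, with -0.39 ± 0.601, was far from the threshold (adjusted p = 0.945). CENPO (-0.95, adjusted p = 0.342), CENPL (-0.82, adjusted p = 0.478) and CENPN (-0.69, adjusted p = 0.418) also had intervals below 0 without passing. For CENPQ (95% interval -0.82 to 1.63), CENPP (-1.64 to 2.06) and CENPU (-1.08 to 1.00), which sit in a subcomplex with CENPO, the sign of the change was not resolved, on at most 8 input counts in any trametinib library.

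Elsewhere in the kinetochore 0 genes were called for density apart from SKA3, and KNTC1 was the gene whose interval lay below 0. The KNL1, MIS12 and NDC80 complexes held 0 calls in 10 genes, from -0.49 for KNL1 to 0.21 for NSL1, with a median of -0.23. NDC80, with 1.17, 1.41 and 2.25 under DMSO and 1.56, 1.15 and 1.15 under trametinib, overlapped between treatments (-0.18 ± 0.328, 95% interval -0.88 to 0.52, adjusted p = 0.952). KNL1 changed by -0.49 ± 0.300 (adjusted p = 0.716). In the outer corona 0 of 4 were called: KNTC1 had -0.75 ± 0.315 (adjusted p = 0.498), with an interval below 0, and CENPF -0.54 ± 0.262 (adjusted p = 0.592). In the checkpoint list 0 of 5 were called, from -0.49 for BUB1 to 0.16 for BUB3. BUB3 was the most precisely measured gene of the set, with densities of 2.60, 2.36 and 2.84 under DMSO and 2.69, 2.90 and 2.66 under trametinib (0.16 ± 0.168, 95% interval -0.20 to 0.52, adjusted p = 0.898). MAD2L1 had -0.21 ± 0.433 (adjusted p = 0.960). In the passenger and shugoshin list 0 of 6 were called, from -0.37 for AURKB (± 0.280, adjusted p = 0.797) to 0.40 for SGO2, with BIRC5 at 0.14 ± 0.320 (adjusted p = 0.963). For the CENP-A list, HJURP had -0.40 ± 0.277 (adjusted p = 0.784), MIS18A 0.28 ± 0.361 (adjusted p = 0.928), and in the centromere network CENPW had -0.49 ± 0.647 (adjusted p = 0.932).

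**Figure D3:**
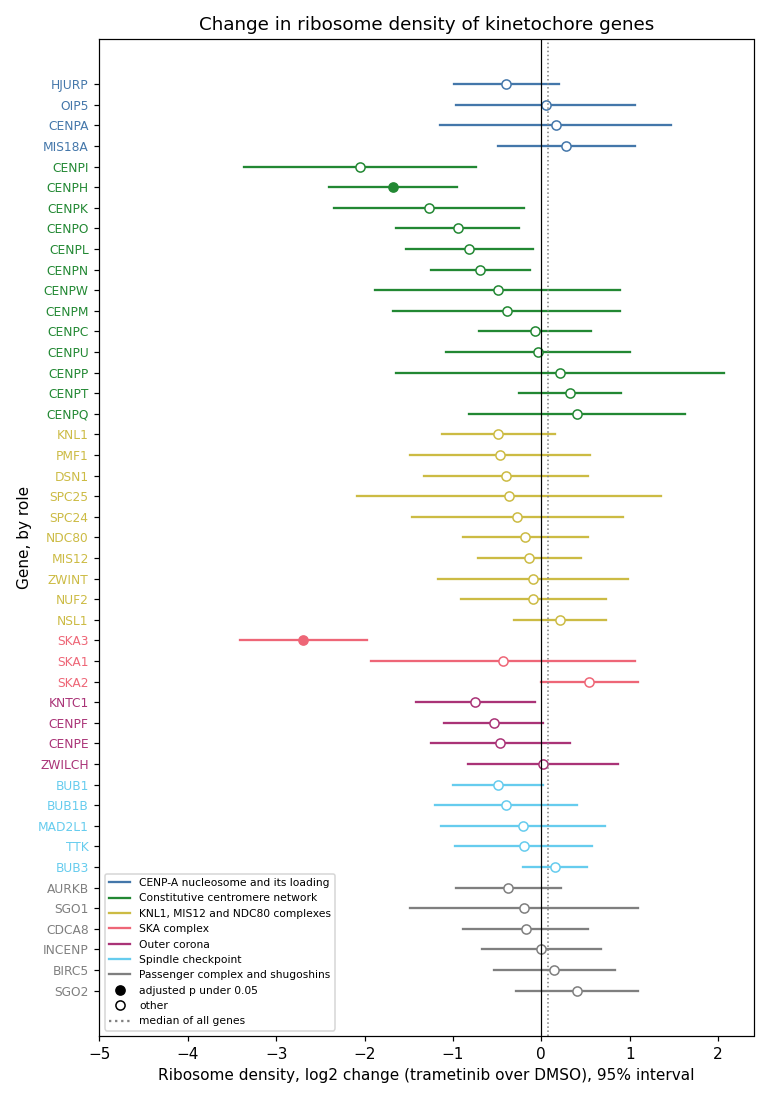
Log2 change in ribosome density (horizontal, trametinib over DMSO, with its 95% interval) of the 45 kinetochore genes tested, grouped and coloured by role; filled points passed at an adjusted p under 0.05, and the dotted line is the median of all genes (0.07). Only SKA3 (-2.69) and CENPH (-1.68) are filled, and the intervals of CENPH, CENPI (-2.05), CENPK and SPC25 reach into that of SKA3.

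**Figure D4:**
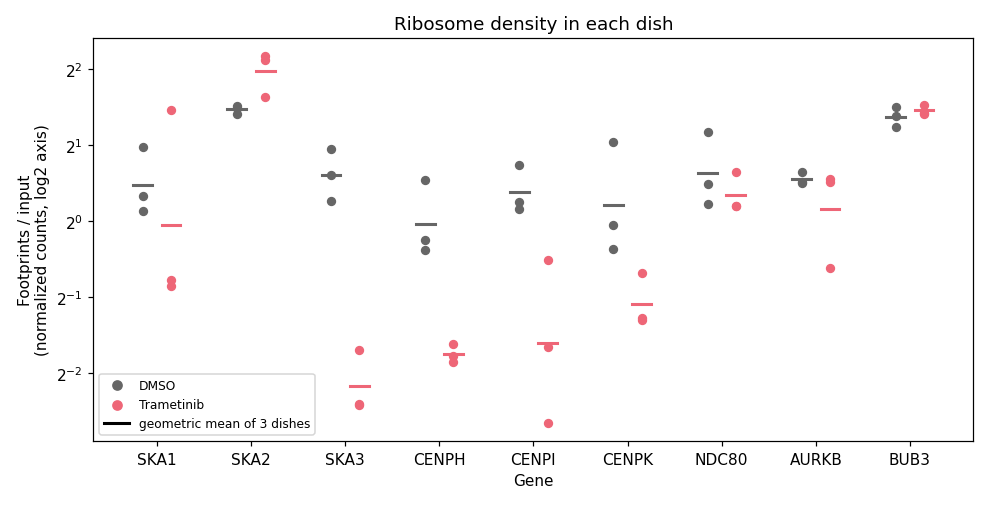
Ribosome density (footprints over input, normalized counts, log2 axis) in each DMSO dish (grey) and each trametinib dish (red) for 9 genes, with the geometric mean of the 3 dishes as a bar. SKA3 lies between 1.202 and 1.92 under DMSO and between 0.187 and 0.308 under trametinib, whereas SKA1, NDC80, AURKB and BUB3 overlap between treatments.

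Before treatment the genes differed widely in density. In DMSO dishes the summed footprints over summed input ranged from 0.353 for CENPF to 6.37 for CENPW, an 18.0-fold range, with a median of 1.26 against 1.02 over all genes tested, and 30 of the 45 lay above that all-gene median. SKA3, at 1.54, stood at the percentile 74.1 of all genes tested under DMSO and at 3.65 under trametinib, with a density of 0.229. CENPH went from 0.997, percentile 48.5, to 0.296, percentile 6.32. In contrast CENPF, at percentile 7.97 under DMSO and 3.76 under trametinib, was low in both, and CENPW, at 99.7 and 98.6, was high in both. The density of the control cells thus set SKA3 and CENPH in the middle or upper part of all genes, and the trametinib density set them near the lower end.

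Lists of related genes gave a frame for these numbers. Of 22 other kinetochore-associated genes 21 were tested (CENPS was not in the table), with 15 lower and 1 higher (CENPB, 0.53, adjusted p = 0.0219) in input, 15 lower and 0 higher in footprints, median changes of -1.59 and -1.73, and 0 called for density (edgeR's quasi-likelihood test), beside 2 lower and 0 higher at an unadjusted p under 0.05. Of 42 genes of the DNA replication machinery 41 were tested, with 37 lower in input, 40 in footprints and 0 higher in either (medians -2.11 and -2.31). In density 1 was lower, DNA2, a nuclease and helicase, at -2.003 (adjusted p = 0.00377), beside 2 lower and 0 higher at an unadjusted p under 0.05. Of 32 centriole and centrosome genes 30 were tested, with 21 lower and 0 higher in input and 24 lower and 1 higher (CETN2, 0.58, adjusted p = 0.00372) in footprints (medians -1.04 and -1.09). In density 2 were lower, CENPJ at -2.03 (adjusted p = 0.00240) and STIL at -1.15 (adjusted p = 0.0184), both needed to build centrioles, beside 8 of 30 lower and 0 higher at an unadjusted p under 0.05. CENPB and CETN2 are named because of the values seen. CENPJ bears the name of a centromere protein but works at the centriole and is not among the 46 genes. The fall in RNA and footprints was thus common in all 3 lists. Lower density was called for 0% of the other kinetochore-associated genes, 2.44% of the replication genes and 6.67% of the centriole and centrosome genes. The share was 4.44% in the kinetochore set with SKA3 counted, and 0.816% over all genes. Without SKA3, around which the set was drawn up, 1 of the other 44 genes was called. These shares rest on 0, 1 or 2 genes each, in lists chosen with earlier results of these data known. They show only that genes called lower in density were also found outside the kinetochore set.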

How the data were processed

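The authors removed adapters with FASTX, discarded reads matching rRNA or tRNA with Bowtie 1.2.2, mapped the rest to GENCODE transcripts and counted reads in the coding sequence of a single gene symbol. The deposited table holds these raw counts for 12 libraries. It also holds normalized counts, a signal that the authors made by dividing each count by a size factor. For 12 of 12 libraries that factor equalled a recomputed median of ratios over all 12 libraries (relative tolerance 1e-06). Its fold changes and adjusted p-values from the authors' DESeq2 1.46.0 comparisons were not used.

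Raw counts were tested with edgeR 4.0.16 (R 4.3.3), trimmed mean of M-values normalization and the quasi-likelihood test with Benjamini-Hochberg adjustment over the 10663 genes with at least 10 counts in 3 input libraries. Input and footprints were fitted on 6 libraries each, and density, the interaction of kind of RNA and treatment, on 12. The SE is the change divided by the square root of F. All genes of the list may be named; values per library are given for the SKA genes, for genes called for density and for the 2 genes of most counts in each role list. Other genes are named where they had the highest or lowest change of their list or missed the minimum, and exceptions are stated. The genes, lists, motifs and promoters shown were chosen with earlier results of these data known. Input and footprint libraries of the same number are taken as those of a dish. The methods do not state that replicates were separate cultures. A figure legend of the study describes its mRNA and footprint fold changes as means of biological replicates. The p-values measure the spread between these samples. The scripts were tested on simulated data. Alternatives were size factors by median of ratios, library totals, a minimum in libraries of either kind, no minimum, DESeq2 1.42.0, limma-trend 3.58.1 (prior count 2), a replicate block and leaving out each library. Coding lengths, exons and shared sequence come from GENCODE and promoters from RefSeq (GRCh38.p14). Amino acid sequences were not used here.

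The input and footprints of a dish came from the same lysate per the methods. The deviations of input and footprints from their group means correlated, over 7669 genes, at 0.815, 0.181 and 0.343 in the DMSO dishes and at 0.139, 0.0813 and -0.116 in the trametinib dishes. Intervals on counts cover counting error only, since the reads carry no molecular identifiers.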

Additional observations from a re-analysis of the deposited data

How the results depend on the processing

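The density call of SKA3, around which the set was drawn up, held in every alternative run. So did the input and footprint calls of the 16 genes given with values per library. Of 184 values that answer a comparison 176 stayed the same and 8 moved. The median input change of the 45 genes was -2.62 with limma-trend, and -3.19 to -2.83 when a library was left out, with 40 to 43 genes lower in input and 43 to 44 in footprints. The number of genes lower in density was 1 to 3 when a library was left out, and 3 with DESeq2 and with a replicate block for each dish, which add CENPI. With the replicate block by number, 41 genes were lower in input, 43 in footprints and 2 in density, with SKA3 at -2.67. With the block for each dish SKA3 stood at -2.68 (adjusted p = 0.000155) and CENPH at -1.64 (adjusted p = 0.0121). Same-numbered DMSO and trametinib libraries correlated at 0.0680, 0.0484 and 0.329 in input and at 0.116, 0.133 and 0.294 in footprints, so the number is not taken as a pairing of treatments. Density changes near 0 that had not passed took the opposite sign in 5 cases, each when a library was left out. The lowest and highest values were -0.466 and 0.0112 for MAD2L1 (positive without DMSO input replicate 1), -0.0275 and 0.329 for BIRC5 (negative without trametinib input replicate 3 and, at -0.00263, without DMSO footprint replicate 1), -0.0298 and 0.489 for MIS18A, and -0.876 and 0.202 for SKA1 (both turned without trametinib input replicate 3). Over all genes, the number higher in density was 10, and 1 to 35 in the alternatives, and the number lower was 87, from 78 to 151 in the alternatives with all libraries (151 with DESeq2), and from 49 (without trametinib footprint replicate 2) to 101 when a library was left out. Scaling to library totals moved the median of all genes to 0.16 in footprints and to 0.18 in density, where the median of the 45 was -0.10. Depth limits the density changes, since 22 of the 45 genes had fewer than 10 counts in some trametinib input library.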
